A study of Mus musculus with 4 samples.

Results

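The p53 target genes described here are 10 genes chosen by name, Cdkn1a, Mdm2, Ccng1, Phlda3, Sesn1, Zmat3, Trp53inp1, Aen, Btg2 and Plk2, of 20150 named genes on the array. Their members are the 13 gene probes whose accession is a RefSeq transcript of a listed symbol. All 10 genes had a probe, 7 of them 1 probe and 3 of them 2 probes, and all 13 probes were well above background on all 4 arrays. The arrays compared splenic B cells of Aff3-/- mice with those of Aff3+/- mice, 2 arrays per genotype, to ask which transcripts depend on Aff3, a relative of the transcription elongation factor Aff4. Both genotypes had B cells purified as CD43-negative, cultured with LPS (10 ug/mL) and IL-4 (10 ng/mL) over 3 days. The control is heterozygous, so each difference below is between no intact Aff3 allele and a single one, and no wild-type cells were analysed here. Strain, age and sex are not given in the sources used here, nor is it stated that replicates are different animals. The p-values then describe only how far these samples spread, which may be technical.

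Each array carried Cy3-labelled cRNA made from 150 ng RNA, and all 4 arrays were on 1 slide and in 1 scan. The number of probes well above background was 24947 to 25869 per array out of 39429, with no saturated gene spots. No probe could be matched to Aff3 by accession, so the deleted gene could not be checked and each direction rests on the labels. Spn, which encodes the CD43 protein used for the depletion, was well above background on every array, at 2.51 to 3.29 times the array's 75th percentile in Aff3+/- and 2.48 to 3.06 times in Aff3-/- cells. All 8 B cell markers were well above background on every array, with a summed signal of 301 to 336 times the array's 75th percentile in Aff3+/- and 281 to 339 times in Aff3-/- cells. Of 9 T cell markers with a probe, 7 or 8 were above background, at a summed signal of 9.38 to 9.86 against 8.75 to 9.26, and Cd3g was above background on no array. Myeloid markers reached 4 of 9 on each array, with Lyz2, S100a8, S100a9, Mpo and Fcgr1 above background on none. The summed signal of 5 plasma cell markers was 46.0 to 51.5 in Aff3+/- and 53.2 to 56.1 in Aff3-/- cells.

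The transcription factor p53 is held at a low level by the ubiquitin ligase Mdm2, and DNA breaks, replication stress or a shortage of ribosome parts release it. It then binds a response element made of a pair of decamers near its target genes and raises their transcription, which slows the cell cycle, aids repair or leads to cell death. Activated B cells divide fast and break their own DNA during class switching, so they handle such signals routinely.

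The binding element itself lies near the start of some of these genes. The RefSeq promoter table (GRCm38.p6) holds windows of 300 bases, from 250 before to 50 after a transcript's start, and gave 11 windows for 8 of the members. Each was searched on both strands for the p53 decamer consensus without mismatch, and for 2 decamers side by side with at most 3 mismatches outside the invariant core. An exact decamer was found in 6 of the 11 windows, against 8.36% of all 32851 windows, and the paired element in 3, against 0.572%. The windows are not independent, since Cdkn1a, Sesn1 and Aen have 2 each and those of Aen overlap. The same Aen element is counted in both its windows. The genes were chosen by name as p53 targets, so a higher share than over all windows could be foreseen and is given as description only. The windows below are the upstream ones of the genes with a paired element, Cdkn1a and Aen, and both windows of Sesn1. Sesn1 is the member with the widest difference between genotypes. The downstream Cdkn1a window, not shown, had neither a decamer nor a paired element. Capitals mark the decamers and paired elements, and each sequence runs from 5′ to 3′ on the gene's strand (plus in all 4).
Cdkn1a, upstream start, chr17:29090729-29091028: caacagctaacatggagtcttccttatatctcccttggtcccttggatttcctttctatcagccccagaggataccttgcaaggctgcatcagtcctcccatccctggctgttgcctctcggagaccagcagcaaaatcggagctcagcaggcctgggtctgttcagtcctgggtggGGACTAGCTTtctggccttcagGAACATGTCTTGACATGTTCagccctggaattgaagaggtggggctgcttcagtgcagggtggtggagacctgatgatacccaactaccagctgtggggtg
Aen, upstream start, chr7:78895677-78895976: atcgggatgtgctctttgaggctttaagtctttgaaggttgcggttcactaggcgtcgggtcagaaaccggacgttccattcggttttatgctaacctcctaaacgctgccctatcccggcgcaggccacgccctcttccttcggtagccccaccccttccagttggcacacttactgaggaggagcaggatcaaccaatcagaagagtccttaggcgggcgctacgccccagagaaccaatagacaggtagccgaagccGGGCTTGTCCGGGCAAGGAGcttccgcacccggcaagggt
Sesn1, upstream start, chr10:41810324-41810623: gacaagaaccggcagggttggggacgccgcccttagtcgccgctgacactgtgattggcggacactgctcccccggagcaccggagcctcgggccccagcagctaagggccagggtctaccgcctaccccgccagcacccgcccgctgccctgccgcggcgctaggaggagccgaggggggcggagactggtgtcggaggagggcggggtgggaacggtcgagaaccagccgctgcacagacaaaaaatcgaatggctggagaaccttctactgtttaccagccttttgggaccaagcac
Sesn1, downstream start, chr10:41887189-41887488: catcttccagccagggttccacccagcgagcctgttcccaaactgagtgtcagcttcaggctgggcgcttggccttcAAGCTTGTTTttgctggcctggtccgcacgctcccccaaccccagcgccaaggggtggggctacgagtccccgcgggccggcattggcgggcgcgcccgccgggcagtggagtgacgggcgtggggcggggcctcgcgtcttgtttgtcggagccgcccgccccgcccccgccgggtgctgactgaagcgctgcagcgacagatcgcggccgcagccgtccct
In the Cdkn1a window the element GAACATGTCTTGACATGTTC has 1 mismatch to the consensus. The Aen element GGGCTTGTCCGGGCAAGGAG has 3. Sesn1 had the decamer AAGCTTGTTT in its downstream window and none in its upstream window. Mdm2 and Ccng1 had a single decamer each, GAACTTGCCT and GGGCAAGCCT. These are matches of letters, and a window without a match says nothing of elements outside it. The Cdkn1a and Sesn1 probes were not tied to a start, so the start of the transcript they measured is not known.

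Comparison of the genotypes asked whether p53 target transcripts depend on Aff3 in activated B cells. Of the 10 genes Sesn1 stood lowest in Aff3-/- cells, at 0.740 times its Aff3+/- signal. The other 9 lay within 0.13 (log2) of their Aff3+/- level. None of the 10 passed the threshold of an adjusted p of 0.05 in the limma fit (adjusted p = 1.00 for each), nor did any of 20633 genes tested (0% called, smallest adjusted p = 0.74). By an unadjusted p under 0.05, 421 genes (2.04%) and 1 of the 10, Sesn1, were taken. Median differences were -0.0085 over the 10 genes and -0.011 over all genes tested. Below, values are log2 signals relative to the array's 75th percentile, differences are Aff3-/- minus Aff3+/- in log2, and ± is the SD of 2 arrays for a mean and the standard error for a difference. An exact permutation test was not run, since 2 arrays against 2 cannot go below p = 0.33.

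**Figure D1:**
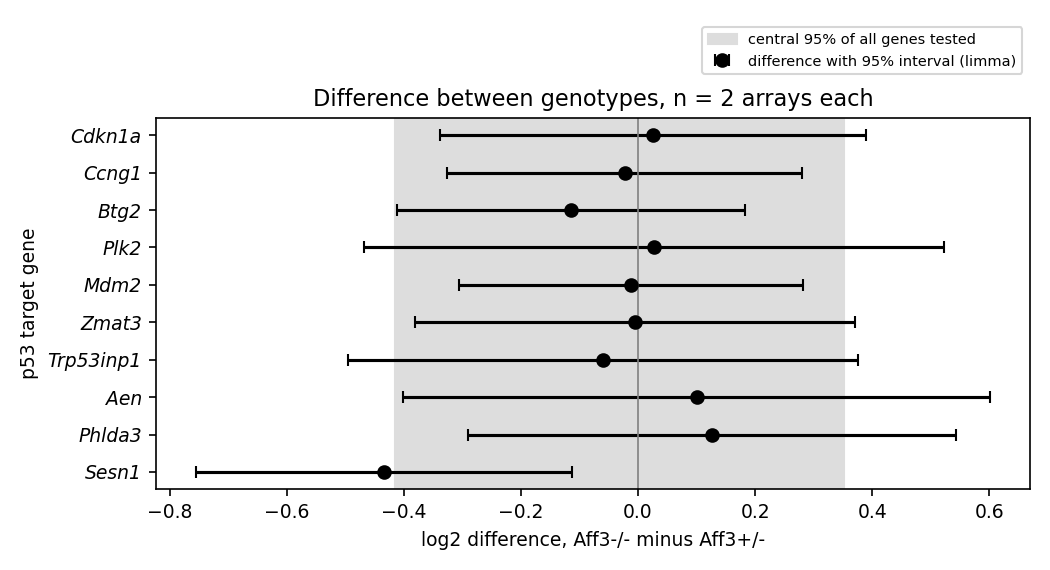
Log2 difference between Aff3-/- and Aff3+/- cells (x axis) for each p53 target gene (y axis), with the 95% interval from limma, 2 arrays per genotype; the grey band holds the central 95% of all genes tested, -0.41 to 0.35. The interval of Sesn1, -0.75 to -0.11, lies below 0, and the other 9 intervals include 0.

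Sesn1 encodes sestrin 1, a stress-induced protein that restrains mTORC1 signalling and takes part in antioxidant defence. Its processed signal was 5118 and 5152 intensity units on the Aff3+/- arrays, and 3632 and 3922 on the Aff3-/- arrays. On the scaled log2 axis these were 2.01 and 1.93 against 1.46 and 1.61. Both Aff3-/- arrays lay below both Aff3+/- arrays, and the gap between the genotypes was wider than the gap within either (0.075 and 0.14). The group means were 1.97 ± 0.053 and 1.54 ± 0.10 (SD, n = 2 each), a difference of -0.43 ± 0.12. By limma the unadjusted p was 0.019 and the adjusted p 1.00. Of all genes tested 96.1% had a smaller difference in size, and 0.712% had a p at or below that of Sesn1. The gene has a single probe, designed on NM_001162908, so no second probe could be set beside it. Its direction was the same with every array left out in turn and under every other setting tried, from -0.51 to -0.36. With 1 array left out it could not turn, since the genotypes do not overlap. Several of the other settings use the same values of this single probe, so they are no separate support. The unadjusted p of 0.019 rose to 0.14 when Aff3+/- replicate 1 was left out, to 0.090 when Aff3-/- replicate 1 was, and to 0.087 when Aff3+/- replicate 2 was. It was 0.034 without Aff3-/- replicate 2. Summed T cell markers were also lower on both Aff3-/- arrays. Lck, the brightest of those tested, read 2.85 and 2.71 in Aff3+/- and 2.72 and 2.64 in Aff3-/- cells (-0.095 ± 0.12). It was lower in Aff3-/- cells within each replicate number, and the genotypes overlapped. Of 8 T cell markers tested 5 were lower and 3 higher. Without overlap were 25%, 1 lower and 1 higher, against 19.6% of all genes. Single markers lower on both Aff3-/- arrays were Zap70 (T cells, -0.32 ± 0.13), and Acta2 (-0.36 ± 0.12) and Cdh5 (-0.61 ± 0.25) of stromal and endothelial cells. Summed stromal and endothelial markers overlapped, at 0.376 to 0.460 in Aff3+/- and 0.334 to 0.398 in Aff3-/- cells. Summed plasma cell markers, the T cell marker Cd8a (1.01 ± 0.43) and the platelet marker Pf4 (2.16 ± 0.64) were higher on both Aff3-/- arrays. Acta2, Cdh5, Cd8a and Pf4 were dim, with Aff3+/- means of -5.58, -4.86, -6.74 and -9.05. On some arrays no platelet marker, Pf4 included, was above background, so Pf4 passed the filter through 1 genotype only. Its difference is then partly taken against background. The platelet markers Ppbp and Itga2b did not pass. Summed platelet markers overlapped, at 0.00881 to 0.0128 in Aff3+/- and 0.0114 to 0.0187 in Aff3-/- cells. Of 8 B cell markers 7 were lower and 1 higher, with a median difference of -0.13, against -0.011 over all genes tested. None of them was without overlap, against 19.6% of all genes, a count that takes no account of replicate number. Cd22, at 2.93 and 2.66 in Aff3+/- and 2.70 and 2.41 in Aff3-/- cells, was lower within each number. Cd79b was higher within number 1 and lower within number 2. The part of these markers in the Sesn1 value was not tested.

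**Figure D2:**
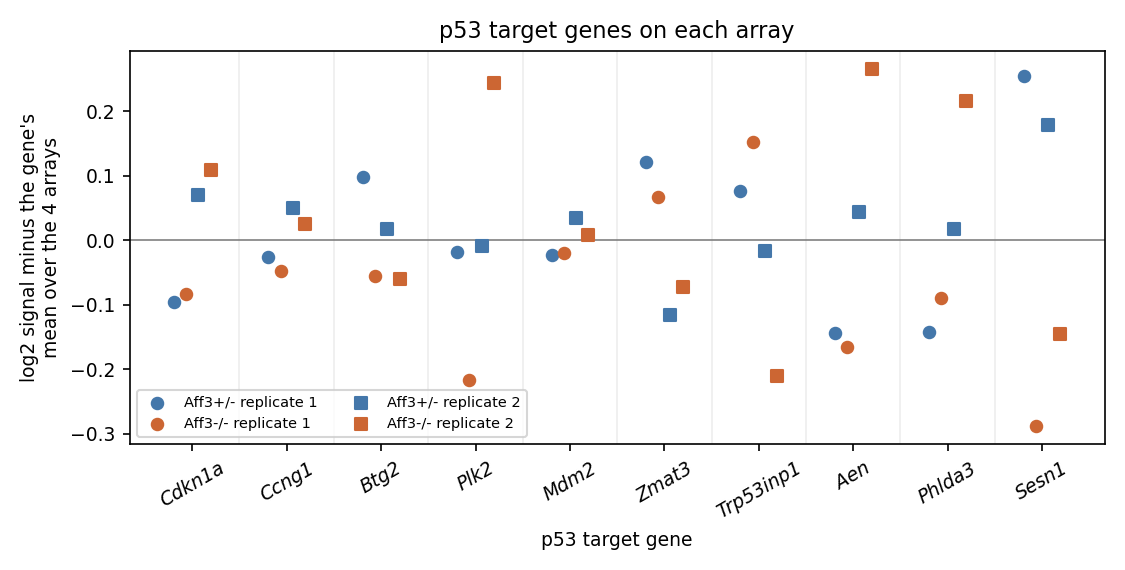
Log2 signal of each p53 target gene (x axis) minus that gene's mean over the 4 arrays (y axis), 1 point per array; blue marks Aff3+/-, orange Aff3-/-, circles replicate number 1 and squares number 2. Both Aff3-/- points lie below both Aff3+/- points for Sesn1 and Btg2, whereas the genotypes overlap for the other 8 genes.

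Among the genes tied to cell cycle arrest, Cdkn1a encodes p21, an inhibitor of cyclin-dependent kinases and the classical p53 target. It gave -0.51 and -0.35 on the Aff3+/- arrays, and -0.50 and -0.31 on the Aff3-/- arrays. In both genotypes the array numbered 2 was the brighter, and the genotypes overlapped. The difference was 0.026 ± 0.14, with a 95% interval of 0.791 to 1.31 as a fold. This probe is repeated in 10 spots per array. Spots ran from -0.56 to -0.39 and from -0.40 to -0.30 on the Aff3+/- arrays (9 spots kept on the latter), and from -0.57 to -0.37 and from -0.34 to -0.25 on the Aff3-/- arrays. The SD among spots was 0.028 to 0.054 on an array, and the means of the 2 arrays of a genotype lay 0.16 and 0.19 apart. A second Cdkn1a probe, for transcript NM_001111099, differed by -0.10 ± 0.13, so the direction of the gene depends on the probe. That probe has 1 spot per array and was dim, at 81.9 to 98.3 intensity units against 895 to 1063 for the main probe.

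**Figure D3:**
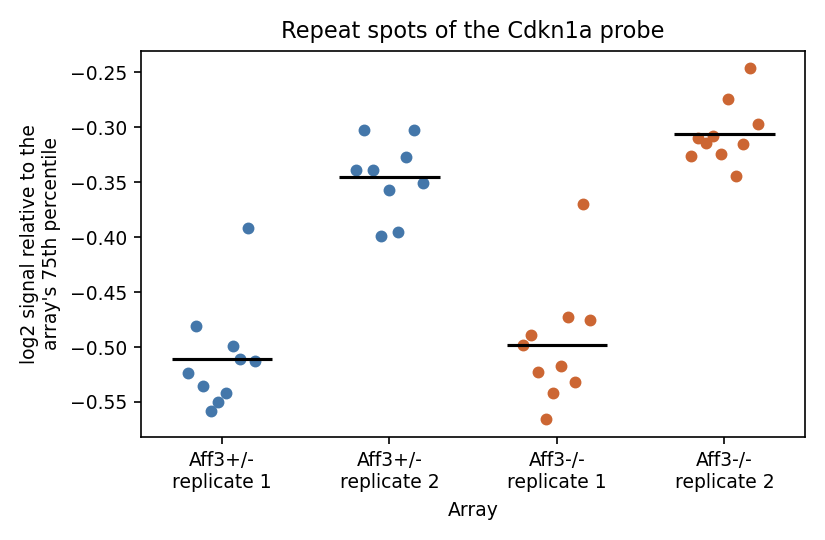
Log2 signal relative to the array's 75th percentile (y axis) of each repeat spot of the main Cdkn1a probe on the 4 arrays (x axis), with the array's mean as a bar. Spots of replicate number 1 centre near -0.5 in both genotypes, and those of number 2 lie higher in both.

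Ccng1 encodes cyclin G1, which binds a phosphatase that acts on Mdm2. Its values were 2.30 and 2.38 in Aff3+/- and 2.28 and 2.35 in Aff3-/- cells, a difference of -0.023 ± 0.11. The 4 arrays spanned only 0.097, and the genotypes overlapped. Btg2, an antiproliferative cofactor of mRNA deadenylation that stimulation also induces as an immediate early gene, gave 1.28 and 1.20 in Aff3+/- cells. Its Aff3-/- arrays read 1.13 and 1.13, both below. The difference was -0.12 ± 0.11, with an interval of -0.41 to 0.18, so Btg2 did not pass in spite of the lack of overlap. Plk2, a polo-like kinase of the centriole cycle and also an early response gene, was among the dimmer signals at 95.9 to 129 intensity units. It read -3.58 and -3.57 in Aff3+/- cells, and -3.78 and -3.32 in Aff3-/- cells, which bracket both controls. The difference was 0.027 ± 0.19, and 0.15 with normexp background correction.

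Mdm2, Zmat3 and Trp53inp1 act on p53 or on the course of its response. Mdm2, the ligase that p53 induces and that in turn degrades p53, read 3.28 and 3.33 in Aff3+/- and 3.28 and 3.31 in Aff3-/- cells. All 4 arrays lay within 0.057, the narrowest span of the members, and the difference was -0.012 ± 0.11 with an interval of 0.809 to 1.22 as a fold. Zmat3, a zinc finger protein that binds RNA and shapes splicing, gave 0.64 and 0.41 against 0.59 and 0.45, a difference of -0.0050 ± 0.14. The Aff3-/- arrays lay between the Aff3+/- arrays. Trp53inp1, a nuclear protein that promotes p53-dependent death and autophagy, gave 1.82 and 1.72 in Aff3+/- cells. Its Aff3-/- arrays read 1.89 and 1.53, 1 above and 1 below, for a difference of -0.059 ± 0.16. The second Trp53inp1 probe, on the same transcript, gave -0.051 ± 0.16 and the same order of the 4 arrays.

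Death and survival signalling was represented by Aen and Phlda3. Aen, a nuclease that takes part in apoptosis, read 3.88 and 4.06 in Aff3+/- and 3.85 and 4.28 in Aff3-/- cells. The Aff3-/- arrays were the lowest and the highest of the 4. The difference was 0.10 ± 0.19, with the widest interval of the members, 0.757 to 1.52 as a fold, and the second Aen probe gave 0.074 ± 0.19. Phlda3, a pleckstrin homology protein that holds Akt off the membrane, read 1.08 and 1.24 in Aff3+/- and 1.14 and 1.44 in Aff3-/- cells. Its difference of 0.13 ± 0.16 was the highest of the members, and the genotypes overlapped.

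Over the members, 2 of 10 were without overlap, both lower in Aff3-/- cells, where 19.6% of all genes tested were without overlap, 11.1% lower and 8.45% higher. That share is close to the background. Differences below 0 were found for 6 of the 10, against 54.3% of all genes. The genotype difference was smaller than the mean gap within a genotype for 8 of the 10 genes, as for 80.4% of all genes. By the same kind of count, arrays with the same replicate number resembled each other more than arrays of the same genotype. Cdkn1a, Ccng1, Plk2, Mdm2, Aen and Phlda3 were brighter on both arrays numbered 2 than on both numbered 1, and Zmat3 and Trp53inp1 were dimmer on both. These 8 of 10 stand beside 64.3% of all genes tested, 30.8% brighter and 33.5% dimmer. Sesn1 and Btg2 were the members for which the numbers overlapped.

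With 1 array left out, the direction of 8 members depended on which array it was. Phlda3, Aen and Plk2 turned to lower in Aff3-/- cells without Aff3-/- replicate 2 (-0.027, -0.12 and -0.20), and Trp53inp1 to higher (0.12). For Phlda3, Aen and Plk2, leaving out Aff3-/- replicate 1 gave 0.28, 0.32 and 0.26 instead, and for Trp53inp1 -0.24. Zmat3 turned to higher without Aff3+/- replicate 1 (0.11) and without Aff3-/- replicate 2 (0.065), and Cdkn1a turned to lower without the same arrays (-0.056 and -0.070). Mdm2 and Ccng1 turned to higher without Aff3-/- replicate 1 (0.0016 and 0.014) and without Aff3+/- replicate 2 (0.017 and 0.015). Sesn1 and Btg2 stayed lower in all 4 such fits, which their lack of overlap fixes in advance. Btg2 ran from -0.15 without Aff3+/- replicate 2 to -0.075 without Aff3+/- replicate 1. Another background correction (normexp) turned Ccng1 and Zmat3 to higher, at 0.018 and 0.0070.

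**Figure D4:**
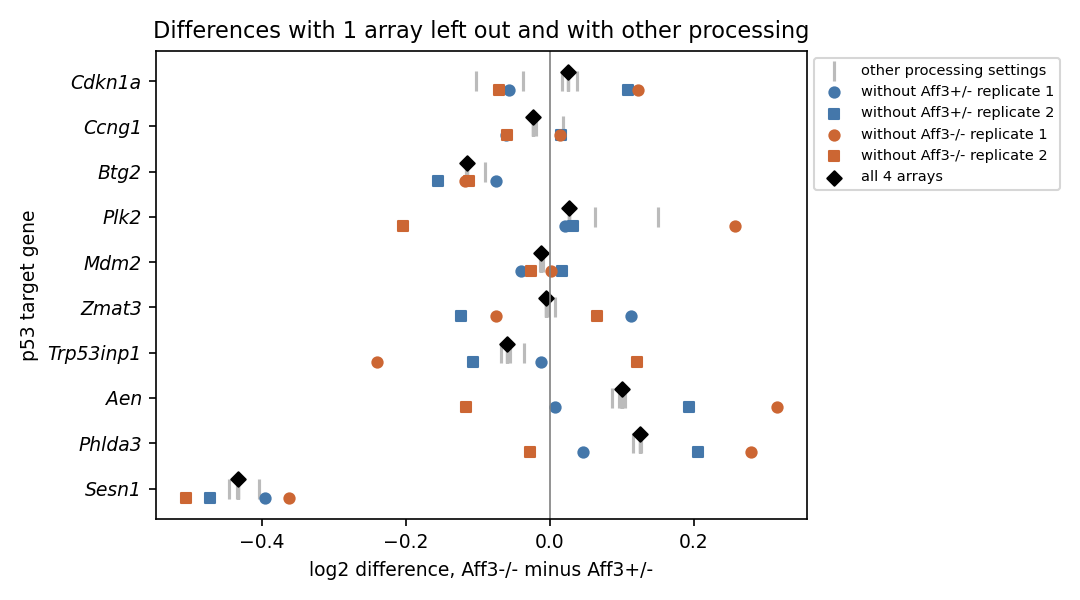
Log2 difference between Aff3-/- and Aff3+/- cells (x axis) for each p53 target gene (y axis), with all 4 arrays (diamonds), with 1 array left out (circles and squares, coloured by the genotype of the omitted array) and under other processing settings (grey ticks). Sesn1 stays between -0.51 and -0.36 and Btg2 below 0, and the other genes have values on both sides of 0.

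Further p53 pathway genes were read from lists drawn up from textbook knowledge. Of 37 further p53 targets 33 were tested, and none passed the adjusted threshold. The median difference was -0.0064, with 14 genes higher and 19 lower, and 9.09% were without overlap (1 higher, 2 lower), against 19.6% of all genes tested. Bax, the pore-forming death protein, read 3.31 and 3.30 in Aff3+/- and 3.26 and 3.44 in Aff3-/- cells (difference 0.044 ± 0.12). Bbc3, which encodes the BH3-only protein Puma, differed by -0.0018 ± 0.11. The death receptor gene Fas differed by 0.040 ± 0.25, with Aff3-/- arrays at 2.50 and 1.83 on either side of 2.18 and 2.07. Sesn2, a paralogue of Sesn1, read 2.12 and 1.41 in Aff3+/- and 2.43 and 1.51 in Aff3-/- cells (difference 0.20 ± 0.40). In both genotypes the array numbered 1 was the brighter, and the Aff3+/- arrays spanned 0.71. The fit has no replicate term, so its standard error carries that gap. In this fit a change of the size seen for Sesn1 would not stand out for Sesn2. The smallest unadjusted p among these targets belonged to Dcxr, a carbonyl reductase (-0.19 ± 0.12), and Fbxw7, a ubiquitin ligase subunit (0.12 ± 0.11), each without overlap.

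Among 28 genes for p53 and its regulators, all tested, the median was -0.0088 and none passed. Without overlap were 25%, 5 higher and 2 lower, where all genes tested gave 19.6%, 8.45% higher and 11.1% lower. Trp53, the gene for p53 itself, read -0.15 and -0.10 in Aff3+/- and -0.35 and -0.21 in Aff3-/- cells. Both Aff3-/- arrays were lower, and the difference of -0.15 ± 0.12 had an interval of -0.47 to 0.16 that includes 0. Mdm4, the inhibitory partner of Mdm2, differed by -0.12 ± 0.16 with overlapping arrays. Trp53rkb, which encodes a p53-related kinase, differed by 0.15 ± 0.12.

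Genes that share an inducer or a process with the members were listed beside them. Immediate early genes, the class to which Btg2 and Plk2 also belong, had a median of 0.15 over 19 genes, 17 higher and 2 lower where 54.3% of all genes were lower, and none passed. Without overlap were 15.8%, 3 genes, all higher, against 19.6% of all genes. That count takes no account of replicate number, so a wide gap between numbers hides a difference seen within each. Egr2 read 1.66 and 0.42 in Aff3+/- and 2.25 and 1.02 in Aff3-/- cells, higher within each number but counted as overlapping. Fos and Nr4a1 were lower in Aff3-/- cells within number 1 and higher within number 2. Whether the list as a whole differs was not tested. Dusp2, a phosphatase acting on MAP kinases, was 0.32 ± 0.18 and the stress-induced factor Atf3 0.20 ± 0.14, whereas Btg2 lay at -0.12 and Plk2 at 0.027. Cell cycle genes, whose drive p21 restrains, had a median of 0.037 over 20 genes, with none passing and none without overlap, against 19.6% of all genes. Within that list the mitotic checkpoint kinase Bub1 was 0.077 ± 0.13 and the ribonucleotide reductase subunit Rrm2 0.080 ± 0.15.

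**Figure D5:**
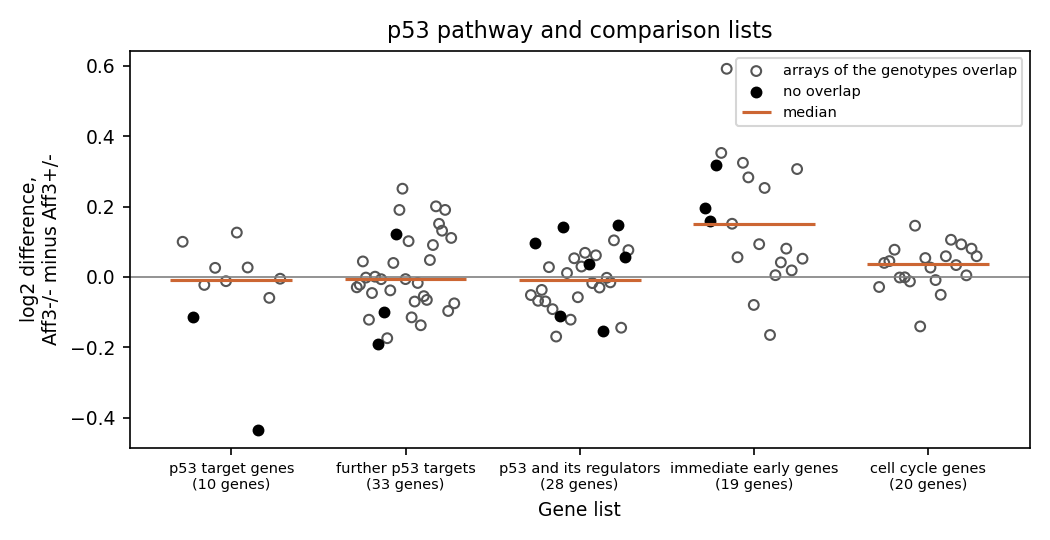
Log2 difference between Aff3-/- and Aff3+/- cells (y axis) for each tested gene of 5 lists (x axis), filled where the arrays of the genotypes did not overlap, with the list's median as a bar. Medians lie near 0 for the p53 target genes, further targets and regulators, and at 0.15 for the immediate early genes.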

How the data were processed

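Agilent Feature Extraction 10.7.1.1 produced the spot values, per the submitters' processing notes. Per the file headers, the deposited scanner files hold background-subtracted, spatially detrended intensity values, with no normalization between arrays. A deposited table of log2 values, centred on each probe's median over the arrays, served as an alternative. Its upstream steps are not given in the sources used here. After centring, its values correlated at r = 1 with the scaled scanner values on each array, so it is no independent check.

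Of 44397 spots per array, 1377 control spots and those with an outlier flag were left out. The log2 processed signal was scaled to each array's 75th percentile and averaged over spots of a probe. Probes well above background on both arrays of a genotype were kept (25132), and a gene took its brightest probe, giving 20633 genes. Probes were named by transcript accession through a RefSeq table of GRCm38.p6 (26581 of 39429), 11 more by symbol or synonym. Differences came from lmFit and eBayes of limma 3.58.1 (R 4.3.3), two-sided, with Benjamini-Hochberg adjustment over all genes tested and no replicate term. The code was run on simulated data with planted shifts larger than any member's difference and no replicate structure. That run says nothing of differences as small as those of the members.

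The members and lists were chosen with earlier results of these data known, as was the rule for named genes: all 10 members, and from each list the 2 genes of smallest p plus Trp53, Mdm4, Bax, Bbc3, Fas and Sesn2. From the list of regulators 2 older names of listed genes were dropped.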

Additional observations from a re-analysis of the deposited data

How the results depend on the processing

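No member passed the adjusted threshold under any setting that was run, and the lowest adjusted p of a member was 0.66, for Sesn1 with the replicate number as a block. Over all genes tested the count of calls was 0 under every setting except with an array left out, where it ran from 0 to 18 (11 without Aff3+/- replicate 1 and 18 without Aff3+/- replicate 2). In the same fits the members without overlap numbered 5 to 7 against 2, since a lone array meets that condition more easily. The share of all genes without overlap was not computed for those fits. The 5 to 7 members therefore have no background to be set beside, and nothing is concluded from them. The members' median ran from -0.065 to 0.016 in those fits. A lone array is assumed there to vary like the other genotype. The difference ran from -0.070 to 0.12 for Cdkn1a, -0.041 to 0.017 for Mdm2, -0.060 to 0.015 for Ccng1, -0.027 to 0.28 for Phlda3, -0.12 to 0.11 for Zmat3, -0.24 to 0.12 for Trp53inp1, -0.12 to 0.32 for Aen and -0.20 to 0.26 for Plk2. With normexp background correction Ccng1 (0.018) and Zmat3 (0.0070) turned to higher, Plk2 moved from 0.027 to 0.15 and the members' median from -0.0085 to 0.012, and the cause was not tested. Cdkn1a turned to lower when both its probes were averaged (-0.038) and in the deposited values (-0.10), which hold only its second probe here. Phlda3 and Trp53inp1 were not analysed in the deposited values. Number 1 minus number 2 differences of the genotypes correlated at 0.557 across 20633 genes, which are not independent, but with 2 pairs the numbers were not taken as pairs. The replicate block raised genes at an unadjusted p under 0.05 from 421 to 1455, with 0 passing adjustment, and left Sesn1 at -0.43 ± 0.094. No slide block could be fitted, as the arrays shared 1 slide and 1 scan. Every member had a smaller standard error with the block, as for Cdkn1a (0.074 against 0.14), Phlda3 (0.083 against 0.16) and Aen (0.098 against 0.19). With it the interval of Sesn1 was -0.71 to -0.16, and those of the other members included 0. The ± values and intervals given earlier come from the fit without the block and carry the gap between numbers. Precision is limited by that gap as well as by the number of arrays.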
